A study of Mus musculus with 9 samples.

Results

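The 6 genes Polk, Xpc, Ddb2, Ercc5, Rrm2b and Aen are linked to p53 and act in DNA repair, in tolerance of DNA damage, in nucleotide supply for repair or, for Aen, in the cutting of DNA and RNA. They were taken as every probe set that carried one of these gene symbols in the platform annotation, which gave 10 of 22626 probe sets and 6 of 12393 named genes. Polk and Ddb2 were each measured by 2 probe sets, Aen by 3, and Xpc, Ercc5 and Rrm2b by 1. Of the 10 probe sets, 9 were bright enough on average to reach the middle of the range of probe-set means, 5.66; the third probe set of Aen was dimmer. All 10 were kept.

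RNA came from TAMH cells, a mouse hepatocyte line derived from animals transgenic for TGF-alpha, with the strain labelled C57BL/6 and the tissue liver. Cells were kept in control medium, or in medium with 2 mM acetaminophen (APAP) or 2 mM of its meta regioisomer (AMAP), and harvested after 2, 6 or 24 h from 2 dishes per treatment. The compounds differ in the position of the ring hydroxyl group, para in APAP and meta in AMAP, and the study's title names AMAP as the less hepatotoxic of them and gives p53 a part in how expression differs between them. Each of the 9 combinations of treatment and time had 1 array. A difference at a single time therefore has no replicate check and is given without a p, and the number of arrays limits the precision. All values are RMA values on the log2 scale, so that a difference of 1 is 2-fold.

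p53 is a transcription factor that is stabilised by DNA damage and other stress and raises the transcription of genes for cell-cycle arrest, cell death and repair. Nucleotide excision repair removes bulky adducts: the damage is recognised, the strand is opened and cut on both sides, and the gap is filled. Translesion polymerases instead copy past a lesion that is still in place, and ribonucleotide reductase makes the deoxynucleotides that gap filling and bypass consume. The liver is exposed to reactive drug metabolites, acetaminophen among them. DDB2 is a well-known p53 target in human cells, a response that the mouse gene has been reported not to share.

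On GRCm38.p6 the genes lie on different chromosomes: Ercc5 on chromosome 1, Ddb2 on 2, Xpc on 6, Aen on 7, Polk on 13 and Rrm2b on 15. RefSeq sequence around the transcript start, 250 bases before it and 50 after, was at hand for Aen, Polk and Ercc5. The windows of Aen and Polk are shown because the values of these genes went together over the arrays. Capitals mark an exact match to the p53 consensus decamer, the unit that occurs as a pair in a full p53 site; the Aen window is chr7:78895677-78895976 on the plus strand, and those of Polk are chr13:96542530-96542829 and, for a start inside the gene, chr13:96519138-96519437, both on the minus strand.
Aen: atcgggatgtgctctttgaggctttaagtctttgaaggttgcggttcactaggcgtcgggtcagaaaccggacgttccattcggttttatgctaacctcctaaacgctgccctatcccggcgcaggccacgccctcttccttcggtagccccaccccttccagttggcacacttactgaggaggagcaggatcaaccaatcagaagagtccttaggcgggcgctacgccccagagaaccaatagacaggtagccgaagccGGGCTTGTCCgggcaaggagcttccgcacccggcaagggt
Polk upstream start: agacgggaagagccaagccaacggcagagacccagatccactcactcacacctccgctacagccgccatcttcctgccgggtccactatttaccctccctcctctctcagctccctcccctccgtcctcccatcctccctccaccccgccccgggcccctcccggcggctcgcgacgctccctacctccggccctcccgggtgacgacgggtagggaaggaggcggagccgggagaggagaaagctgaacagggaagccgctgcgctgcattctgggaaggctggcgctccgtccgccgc
Polk internal start: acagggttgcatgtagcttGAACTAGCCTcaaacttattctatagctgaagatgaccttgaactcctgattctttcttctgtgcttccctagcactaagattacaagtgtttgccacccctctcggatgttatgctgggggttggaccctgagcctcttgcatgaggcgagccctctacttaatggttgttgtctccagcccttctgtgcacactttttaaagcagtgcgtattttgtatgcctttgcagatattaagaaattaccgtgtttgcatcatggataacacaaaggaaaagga

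The decamer reads the same on both strands as a pattern, so that 1 search covers both. In Aen the match GGGCTTGTCC lay 11 to 20 bases into the transcript, counted from 1 at the start, and in Polk the match GAACTAGCCT lay at positions -231 to -222 from the internal start. A second Aen window, with a start farther downstream, held the same match. The upstream Polk window and the Ercc5 window held none. Of all 32851 windows of this length, 8.36% held a decamer match. A full site, 2 decamers up to 13 bases apart with up to 2 mismatches in all, was found in 4.09% of windows and in none of the 5 windows of these genes. The motif CCAAT, searched on both strands, was in the Aen and Ercc5 windows and in 37.4% of all; GGGCGG was in the upstream Polk window and the downstream Aen window and in 35.7% of all. These matches describe the letters only.

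Some facts of the arrays bear on all of the genes. Among hepatocyte markers Alb had a mean of 13.06, Ttr 11.64 and Hnf4a 9.43, while Cps1 was at 6.83, Tat at 6.03 and Apoc3 at 5.51. Of the 11 hepatocyte markers measured, 10 reached 5.66. None of 6 macrophage and 5 endothelial markers reached 5.66, and 1 of 6 stellate cell and fibroblast markers did (Dcn, at 10.24). Of 4 cholangiocyte markers 3 did, Krt7 at 9.35, Krt19 at 7.60 and Sox9 at 6.48. The mean of the 4 cholangiocyte markers ran from 6.42 in control at 2 h to 7.33 in APAP at 2 h, that of the 11 hepatocyte markers from 9.35 in AMAP at 2 h to 9.87 in APAP at 24 h, and the part of these shifts in the results was not tested. Both 24 h arrays of treated cells and the 6 h array of APAP stood apart: their lower quartile was 3.82 to 3.92 against 3.50 to 3.63 on the other 6. The bacterial dap control, in its later design, has a probe set in the middle of the transcript. On these 3 arrays it read -1.95 to -1.58 against the probe set at the 3′ end, and on the other 6 it read -0.60 to -0.44. The older dap probe sets gave -1.03 to -0.42 on the 3 and -0.80 to -0.61 on the 6 and did not separate them. The comparisons at 2 h and of AMAP with control at 6 h use none of these 3 arrays. Both comparisons of APAP at 6 h, and both comparisons with control at 24 h, set an array that stands apart against one that does not. APAP against AMAP at 24 h has such arrays on both sides. The part of this in the results was not tested. In RNA from whole dishes a lower value in each cell and fewer cells that hold the transcript cannot be told apart.

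**Figure D1:**
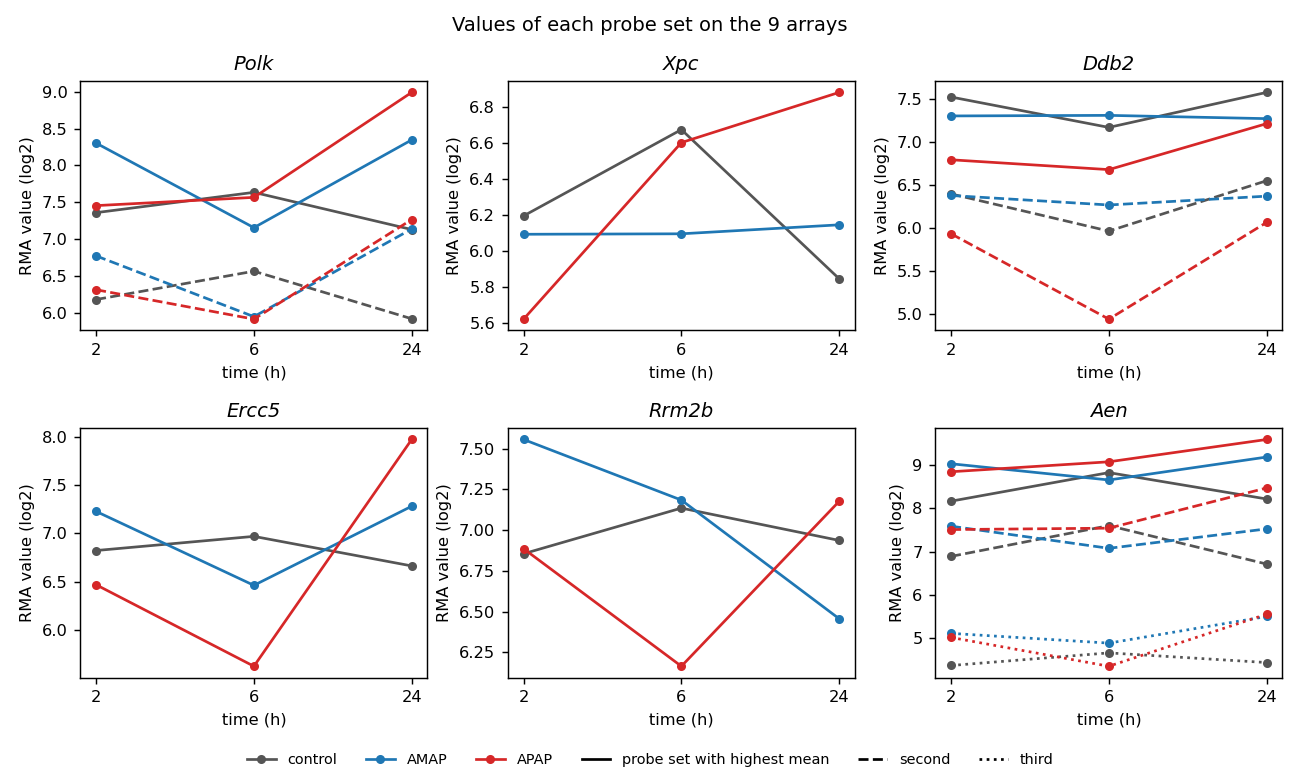
RMA values (log2, vertical axes, scaled per gene) of the 10 probe sets against time in h for control (grey), AMAP (blue) and APAP (red), 1 array per point; solid, dashed and dotted lines are the probe sets of a gene in order of mean, and the lines only join arrays. Polk and Aen were highest in APAP at 24 h, at 8.99 and 9.59, and both Ddb2 probe sets were lowest in APAP at each time.

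Damage recognition: Xpc and Ddb2. Xpc senses the distorted helix in the first step of excision repair over the whole genome, and Ddb2 binds ultraviolet lesions within a ubiquitin ligase and hands them on to Xpc. They did not go together. Xpc was lowest in APAP at 2 h and highest in APAP at 24 h. Ddb2 was below control in APAP at all 3 times.

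Xpc read 6.19 in control, 6.09 in AMAP and 5.62 in APAP at 2 h. At 6 h it read 6.67, 6.09 and 6.60, and at 24 h 5.84, 6.14 and 6.88, in the same order. The AMAP values spanned 6.09 to 6.14, while control ranged over 0.83 and APAP over 1.26. APAP differed from control by -0.57 at 2 h, -0.07 at 6 h and 1.03 at 24 h, and AMAP by -0.10, -0.58 and 0.30. The control array of 6 h was 0.48 above that of 2 h and 0.83 above that of 24 h.

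For Ddb2 the probe set with the higher mean read 7.52 in control, 7.30 in AMAP and 6.79 in APAP at 2 h. At 6 h it read 7.17, 7.31 and 6.68, and at 24 h 7.57, 7.27 and 7.21. Its second probe set read 6.40, 6.38 and 5.93 at 2 h. At 6 h it read 5.96, 6.27 and 4.94, and at 24 h 6.55, 6.37 and 6.07. Both probe sets were lower in APAP than in control and in AMAP at each time.

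The difference of Ddb2 in APAP from control was -0.73, -0.49 and -0.36 at 2, 6 and 24 h on the first probe set and -0.46, -1.02 and -0.48 on the second. AMAP stayed closer to control, at -0.22, 0.14 and -0.30 and at -0.02, 0.30 and -0.18. The 3 APAP values of the first probe set, 6.68 to 7.21, overlap those of control, 7.17 to 7.57, by the 24 h array of APAP against the 6 h array of control. The 3 AMAP values, 7.27 to 7.31, lay above all APAP values, the highest of which was 7.21. How many of all probe sets separate in this way was not counted. Ddb1, the partner that holds Ddb2 in the ligase, differed in APAP from control by 0.17, 0.41 and 0.50, and Rad23b, which stabilises Xpc, by 0.48, 0.42 and -0.50.

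Incision: Ercc5. Ercc5 encodes XPG, the nuclease that cuts on the 3′ side of the lesion. It had the widest range of the 10 probe sets, 2.35, from 5.62 in APAP at 6 h to 7.97 in APAP at 24 h. At 2 h it read 6.82 in control, 7.23 in AMAP and 6.47 in APAP. At 6 h it read 6.97, 6.46 and 5.62, and at 24 h 6.66, 7.28 and 7.97. Control stayed within 0.31. APAP was 2.54-fold below control at 6 h and 2.48-fold above it at 24 h, and both of these APAP arrays are among the 3 that stand apart. AMAP differed from control by 0.41, -0.51 and 0.62.

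Lesion bypass: Polk. Polk encodes DNA polymerase kappa, which copies past bulky adducts at guanine. It was higher than control in AMAP at 2 h, in neither compound at 6 h and in both at 24 h. Its main probe set read 7.36 in control, 8.30 in AMAP and 7.46 in APAP at 2 h. The 6 h values were 7.64, 7.16 and 7.57, and at 24 h 7.13, 8.35 and 8.99. The 3 control values ran from 7.13 to 7.64. AMAP at 2 h and both compounds at 24 h read above that range, and APAP at 2 h and both compounds at 6 h read within it.

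In AMAP Polk was 0.94 above control at 2 h and 1.21 above it at 24 h, which is 2.32-fold. In APAP the differences were 0.10 and 1.86, the latter 3.63-fold. The second probe set read 6.18, 6.78 and 6.32 in control, AMAP and APAP at 2 h, 6.57, 5.95 and 5.92 at 6 h, and 5.92, 7.14 and 7.27 at 24 h. It put the differences at 24 h at 1.22 in AMAP and 1.34 in APAP, so that the compounds lay 0.64 apart on the first probe set and 0.13 on the second. At 6 h the second probe set was lower than control by -0.62 in AMAP and -0.65 in APAP, against -0.48 and -0.07 on the first. Polh, the translesion polymerase of the same family that copies past thymine dimers, read 3.17 to 4.23, below the median of all values on each array.

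Nucleotide supply: Rrm2b. Rrm2b encodes the p53-induced small subunit of ribonucleotide reductase, which serves repair and mitochondrial DNA outside of S phase, where Rrm2 is scarce. It read 6.86 in control, 7.56 in AMAP and 6.89 in APAP at 2 h. The 6 h values were 7.13, 7.18 and 6.17, and at 24 h 6.94, 6.46 and 7.18. AMAP at 2 h was the highest and APAP at 6 h the lowest of the 9 arrays.

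AMAP was 0.70 above control at 2 h, within 0.05 of it at 6 h and below it at 24 h, at -0.48. APAP differed from control by 0.03, -0.97 and 0.24. The S-phase subunit Rrm2 differed in AMAP by 0.42, 0.12 and 0.13 and in APAP by 0.23, -0.08 and -0.15. The large subunit Rrm1, which both small subunits need, differed in AMAP by -0.22, -0.06 and 0.29 and in APAP by -0.07, 0.07 and 0.62.

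Nuclease: Aen. Aen encodes an exonuclease that p53 induces and that takes part in the breakdown of DNA in apoptosis. It was higher than control with either compound at 2 and at 24 h on all 3 probe sets. The main probe set read 8.16 in control, 9.03 in AMAP and 8.84 in APAP at 2 h. Its 6 h values were 8.82, 8.65 and 9.07, and at 24 h 8.21, 9.18 and 9.59. The 3 APAP values, 8.84 to 9.59, lay above the 3 control values, 8.16 to 8.82, though the nearest were only 8.84 and 8.82. AMAP at 6 h fell within the control range. On the other probe sets of Aen the APAP and control values overlapped. The share of all probe sets that separate in this way was not counted.

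At 2 h the 3 probe sets of Aen gave 0.86, 0.70 and 0.74 for AMAP and 0.68, 0.62 and 0.65 for APAP. At 24 h they gave 0.97, 0.81 and 1.06 for AMAP and 1.37, 1.76 and 1.12 for APAP. At 6 h they did not go one way, with -0.17, -0.52 and 0.23 for AMAP and 0.25, -0.06 and -0.31 for APAP. The control array of 6 h stood above that of 2 h by 0.66, 0.71 and 0.29. The second probe set read 6.71 to 7.60 in control and 7.51 to 8.47 in APAP, and the third, which is dim, 4.37 to 4.67 and 4.36 to 5.56.

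**Figure D2:**
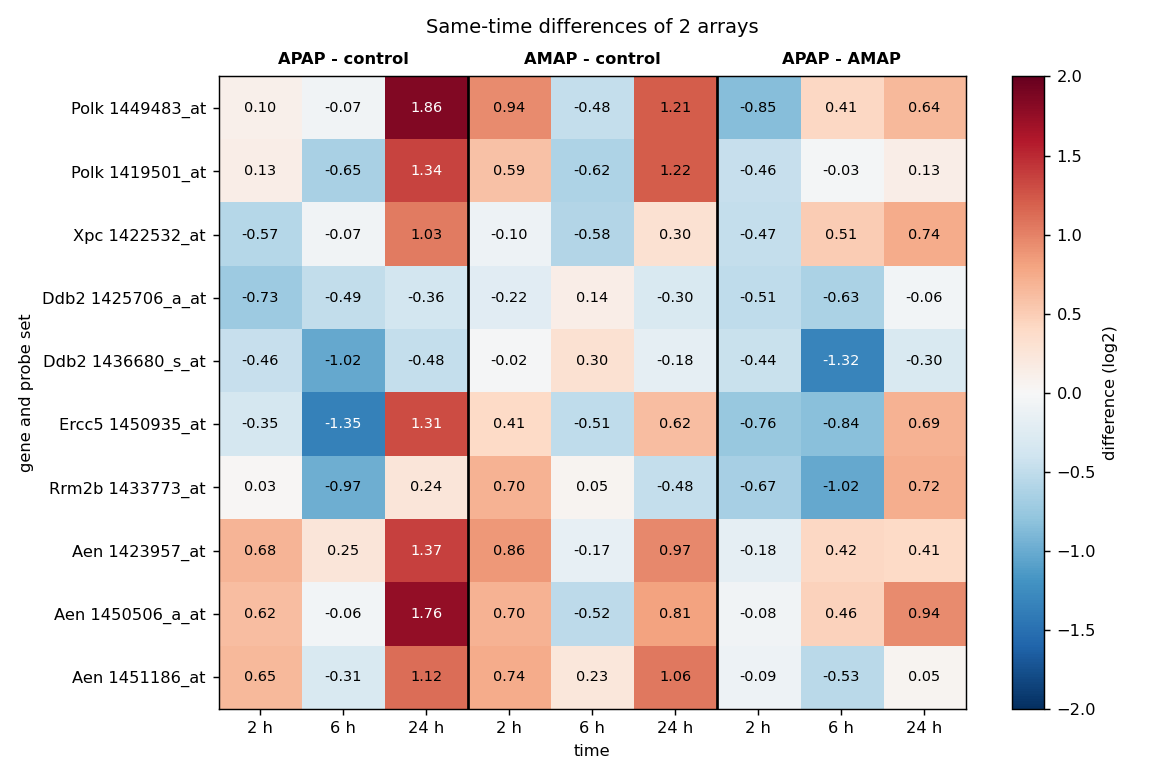
Log2 difference of 2 arrays of the same time for each of the 10 probe sets (rows) in APAP against control, AMAP against control and APAP against AMAP (columns, 3 times each); red is higher and blue lower in the first-named treatment. In the 24 h column of APAP against control 8 of 10 are red, from 0.24 to 1.86, and the 2 of Ddb2 are blue.

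Counted over probe sets, a difference was called at 2-fold or more. The brighter of the arrays also had to reach 5.65, the middle of all values. The shares of all probe sets are out of 22626 and take in those too dim to be called. Of the 10 members, 9 were at or above the median of probe-set means. Among probe sets bright enough to be called the shares would be higher, and these were not counted. This holds for every fold count below, lists of expressed genes included. At 2 h no member was called in any comparison. For AMAP against control 0.694% of all probe sets were called higher and 0.199% lower, for APAP against control 0.455% and 0.552%, and for APAP against AMAP 0.212% and 0.592%. At 1.5-fold, 5 of the 10 were higher in AMAP than in control at 2 h, those of Polk and Rrm2b and 2 of Aen, against 2.02% of all probe sets. None was lower, against 1.5% of all. In APAP 2 of Aen were higher than control (2.28% of all) and 1 of Ddb2 was lower (3.01%). Against AMAP, 3 were lower in APAP, those of Polk (main), Ercc5 and Rrm2b, where 2.44% of all were lower and 1.55% higher.

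At 6 h the members called were lower ones in APAP. The second probe set of Ddb2 and that of Ercc5 were 2-fold lower than control, where 3.56% of all probe sets were, and none was higher (0.893%). At 1.5-fold 4 were lower, with Rrm2b and the second probe set of Polk added, against 9.52% of all lower and 4.94% higher. Against AMAP, Rrm2b and the second probe set of Ddb2 were 2-fold lower, where 6.21% of all probe sets were and 2.04% were higher. At 1.5-fold these were 4, with Ercc5 and the main probe set of Ddb2 added, against 11.6% of all lower and 9.27% higher. In AMAP against control no member was called, with 1.32% of all higher and 0.128% lower. At 1.5-fold 1 was lower in that comparison, the second probe set of Polk, against 2.36% of all lower and 4.11% higher.

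At 24 h, 6 of 10 probe sets were 2-fold higher in APAP than in control: both of Polk, 2 of Aen, and those of Xpc and Ercc5. Median centring and cyclic loess each gave 5, with Xpc at 0.90 and 0.84. Of all probe sets 1.65% were called higher and 3.19% lower; no member was called lower. At 1.5-fold the same 6 were higher, against 7.54% of all, with 6.97% lower. In AMAP both probe sets of Polk were 2-fold higher, against 0.358% of all, and none was lower (2.56%). At 1.5-fold 5 were higher in AMAP, with Ercc5 and 2 of Aen added, against 4.8% of all higher and 6.13% lower. Between the compounds no member was called at 2-fold (1.1% of all higher, 0.88% lower); at 1.5-fold 5 were higher in APAP, against 4.72% of all higher and 3.97% lower, those of Polk (main), Xpc, Ercc5, Rrm2b and 1 of Aen. Between control arrays no member was called at 2-fold, with 0.053% to 0.919% of all probe sets called in either direction. At 1.5-fold 2 of Aen were higher in control at 6 h than at 2 h (1.82% of all higher, 2.4% lower), and 2 of Aen, that of Xpc and the second of Polk were lower in control at 24 h than at 6 h (2.81% of all lower, 3.07% higher). From 2 to 24 h none was apart (1.58% higher, 0.813% lower).

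Taken by the main probe set of each gene, the median difference of the 6 genes from control in AMAP was 0.55, -0.32 and 0.46 at 2, 6 and 24 h, beside -0.01, -0.10 and 0.10 for all expressed genes. In APAP it was -0.16, -0.28 and 1.17, beside -0.01, -0.05 and 0.12. The genes did not all go one way: at 24 h 5 of 6 were above control in APAP and 4 of 6 in AMAP, with Ddb2 below in both and Rrm2b below in AMAP. Comparisons of the compounds with control share the control array of each time.

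APAP against AMAP. At the same dose, 5 of the 6 genes differed between the regioisomers in opposite directions at 2 and at 24 h by their main probe sets. At 2 h all 6 genes were lower in APAP than in AMAP, from -0.18 for Aen to -0.85 for Polk, with a median of -0.59 beside 0.00 for all expressed genes. At 24 h 5 of 6 were higher in APAP on their main probe sets, from 0.405 for Aen to 0.74 for Xpc, and Ddb2 was at -0.06. The median was then 0.67, beside 0.02. The other probe sets did not all show a late difference of this size. At 24 h they gave 0.13 for Polk, 0.94 and 0.05 for Aen, and -0.30 for Ddb2. At 6 h Polk, Xpc and Aen were higher in APAP, at 0.41, 0.51 and 0.42, and Ddb2, Ercc5 and Rrm2b lower, at -0.63, -0.84 and -1.02. Whether the difference between the compounds itself changed with time was not tested, since a term for treatment by time would leave no residual degrees of freedom.

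**Figure D3:**
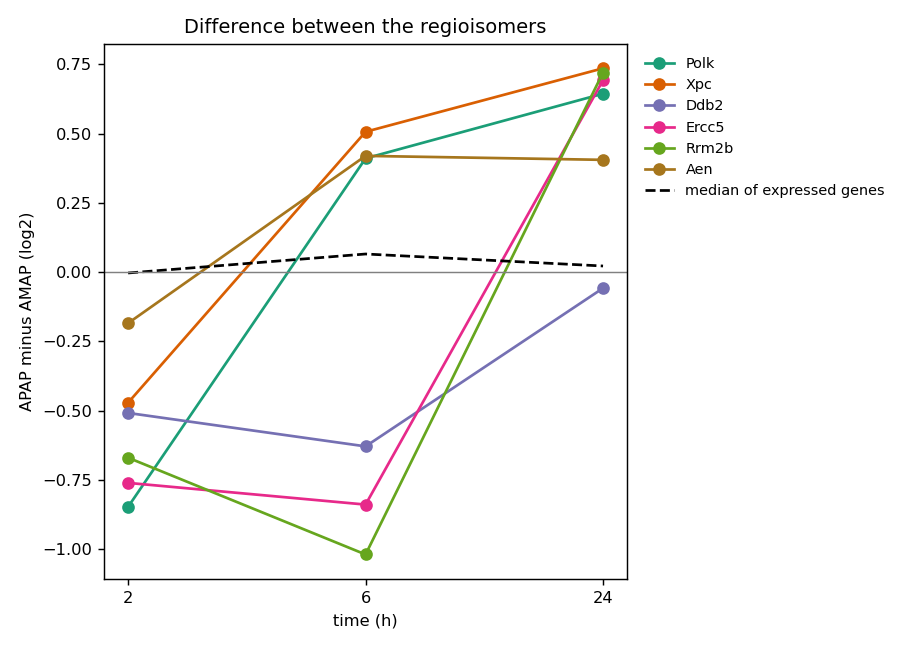
APAP minus AMAP (log2, vertical axis) at 2, 6 and 24 h for the main probe set of each of the 6 genes, 1 array per compound and time; the dashed line is the median of all expressed genes. All 6 genes lie below 0 at 2 h, and 5 lie between 0.405 and 0.74 at 24 h.

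Averaged over the 3 times, with time as a block and treatment by time as the error, limma gave no probe set of the table an adjusted p under 0.05 in the 3 contrasts, which is 0.0% of 22626. At an unadjusted p under 0.05, 4 of the 10 were found for APAP against control, where 7.23% of all probe sets were. These were both of Ddb2 and 2 of Aen. For APAP against AMAP both of Ddb2 were found (4.62% of all), and for AMAP against control the dim one of Aen (0.548% of all).

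For Ddb2 the averaged difference of APAP from control was -0.53 with an SE of 0.17 on the first probe set and -0.66 with an SE of 0.21 on the second, lower at 3 of 3 times on each (limma's adjusted p = 0.623 for both). Against AMAP it was -0.40 with an SE of 0.17 and -0.69 with an SE of 0.21, lower at 3 of 3 times (limma's adjusted p = 0.811 for both). Ddb2 had the smallest residual SD of the 10 probe sets, 0.17. For Aen the main probe set averaged 0.77 above control in APAP, with an SE of 0.25 and higher at 3 of 3 times (limma's adjusted p = 0.623), and 0.55 above it in AMAP, higher at 2 of 3.

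In the contrasts that follow, the average hid differences that changed in sign or in size from time to time. For APAP against control the main probe set of Polk was at 0.10 and -0.07 at 2 and 6 h and at 1.86 at 24 h. Polk averaged 0.63 above control in APAP with a 95% interval of -0.29 to 1.54, and 0.56 in AMAP with an interval of -0.36 to 1.48. Between the compounds Polk differed by 0.07 with an interval of -0.85 to 0.99, Xpc by 0.26 with -0.43 to 0.94, Ercc5 by -0.30 with -1.26 to 0.66, Rrm2b by -0.32 with -1.07 to 0.43, and Aen by 0.21 with -0.37 to 0.80. These intervals take in differences of more than 1.5-fold, so they do not show that the compounds act alike. Leaving out the 24 h arrays turned the averaged difference of APAP from control for Xpc from 0.13 to -0.32, and leaving out the 6 h arrays turned that of Ercc5 from -0.13 to 0.48.

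Where a gene had several probe sets they mostly went together. In 23 of 27 cases, 3 genes in 9 comparisons, all probe sets of the gene differed in 1 direction: 9 of 9 for Ddb2, 8 of 9 for Polk and 6 of 9 for Aen. The 4 exceptions were all at 6 h. Over the 9 arrays the probe sets of Polk had a Pearson r of 0.93, those of Ddb2 of 0.88, and those of Aen of 0.69 to 0.94. Among the genes Polk went with Aen (r of 0.85) and with Ercc5 (0.76), while Ddb2 and Aen were at -0.50 and Rrm2b and Aen at -0.03. These values describe 9 arrays that share treatments and times and in which 3 arrays stand apart.

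Among 6701 other expressed genes, those whose 9 values were most like a member's were as follows. Rap2a and Pip5k1a were closest to Polk (Pearson r of 0.97 and 0.96), Rab18 and Pitrm1 to Ercc5 (0.97 and 0.96), and Mcrip1 and Vps33b to Xpc (0.95 each). Abca1 and Myo5c were closest to Ddb2 (0.95 each), Rasa1 and Rela to Rrm2b (0.94 each), and Ptpn14 and 2310033P09Rik to Aen (0.97 and 0.96).

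Of 31 further genes of nucleotide excision repair 25 were on the array and 24 expressed; their median differed from control by 0.08, -0.06 and 0.29 in AMAP and by 0.12, 0.23 and 0.23 in APAP at 2, 6 and 24 h. In APAP at 24 h 1 of the 24 was 2-fold higher and none lower (1.65% and 3.19% of all probe sets). Of 11 expressed genes of translesion synthesis none was 2-fold apart in any comparison, and the medians lay between -0.15 and 0.07. Of 13 expressed genes of dNTP supply 1 was, Dut, which removes dUTP, at -1.20 in APAP against control at 24 h. Of 10 expressed nucleases none was, and their medians lay between -0.09 and 0.36. Over these comparisons 0.128% to 6.21% of all probe sets were 2-fold apart in a given direction. In limma's averaged contrasts no gene of these lists had an adjusted p under 0.05. At an unadjusted p under 0.05, 1 of the 24, 0 of the 11, 1 of the 13 and 1 of the 10 were higher in APAP than in control. None was lower. Of all probe sets 7.23% passed in this contrast in either direction, so these counts do not set the lists apart.

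In excision repair Ercc1, which with its partner cuts on the 5′ side of the lesion, was 1.64 higher in APAP than in control at 2 h, at 9.75 against 8.11, and higher by 0.67 and 1.15 at 6 and 24 h. Rpa1, which coats the opened strand, was lower in APAP at 6 h by -1.41 and in AMAP at 24 h by -1.03. Xpa, which verifies the damage and is too dim to count among the 24, read 4.82 in APAP and 5.84 in AMAP at 24 h.

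Of 24 other expressed p53 targets, 23 were above control in AMAP at 2 h and 8 were 2-fold higher (0.694% of all probe sets). Their median was 0.67, and the 6 repair genes had a median of 0.55. In APAP at 2 h the median of the 24 targets was 0.14 and none was 2-fold apart (0.455% of all probe sets higher, 0.552% lower). At 6 h the median was -0.04 in APAP, with 3 of 24 2-fold lower and none higher (3.56% and 0.893% of all probe sets). In AMAP at 6 h it was -0.13, with 1 higher and none lower (1.32% and 0.128% of all). At 24 h it was 0.81 in APAP, with 7 of 24 2-fold higher and 2 lower (1.65% and 3.19% of all probe sets). In AMAP it was 0.51, with 3 higher and 1 lower (0.358% and 2.56% of all). The targets farthest apart were Dcxr, a xylulose reductase, 2.40 above control in APAP at 24 h, and, between the compounds at 2 h, the p53 cofactor Trp53inp1 (-2.06) and the antiproliferative Btg2 (-1.90). At 2 h all 24 were lower in APAP than in AMAP. At 6 h 12 were higher and 11 lower, with Perp at 0.0, and at 24 h 17 were higher and 7 lower. The share of all genes that went each way was not counted, and the change with time was not tested. The 24 targets are expressed genes, while the shares of all probe sets take in those too dim to be called. This list was chosen with these arrays known and is no independent evidence of direction.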

How the data were processed

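Total RNA of 9 samples, 1 per treatment and time, was hybridised to Affymetrix Mouse Gene 430A_2 arrays, per the labels. Per the submitters' processing notes, the authors used Affymetrix Expression Console and RMA, and they deposited log2 values for each probe set. The version, and whether all arrays were normalized together, is not given in the sources used here. The method makes the probe intensities of the arrays alike, which hides any change in the amount of RNA. Nothing in the labels says that cultures were repeated.

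Of 22690 probe sets 64 were controls and left out. Of the rest, 20380 carried 1 symbol in the platform annotation, 691 more than 1 and 1555 no symbol. The main probe set of a gene is the one with 1 symbol and the highest mean; expressed means a mean at or above 5.66. Differences are of 2 arrays; the averaged effect of treatment came from limma 3.58.1 (R 4.3.3), fitted on all probe sets with time as a blocking factor, 4 residual degrees of freedom and Benjamini-Hochberg adjustment over the table. The fit was run on simulated data only to check that it returned shifts of known size. Those data held no effect of time and no arrays that stand apart. The check therefore does not show how well the fit finds differences in these 9 arrays. The members, lists, rule for other named genes (pathway genes 2-fold apart, at most 3 per list; partners; the 2 most correlated genes) and alternatives were chosen with earlier results of these data known. The motifs were chosen after the values were seen.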

Additional observations from a re-analysis of the deposited data

Results flagged for a closer look

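Members 1.5-fold apart in opposite directions at different times of the same contrast are given here; with 1 array per treatment and time none of these differences between times was tested. In APAP against AMAP, Polk (main probe set) went from -0.85 at 2 h to 0.64 at 24 h. Its second probe set did not turn to this extent in that contrast, at -0.46, -0.03 and 0.13 at 2, 6 and 24 h. Rrm2b went from -0.67 at 2 h and -1.02 at 6 h to 0.72 at 24 h. Ercc5 went from -0.76 at 2 h and -0.84 at 6 h to 0.69 at 24 h. In APAP against control Ercc5 was at -1.35 at 6 h and 1.31 at 24 h. The second probe set of Polk was at -0.65 at 6 h and 1.34 at 24 h in APAP against control, and at 0.59, -0.62 and 1.22 at 2, 6 and 24 h in AMAP against control. All values of APAP at 6 h and of either compound at 24 h come from arrays that stand apart, and their part in these turns was not tested.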

How the results depend on the processing

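No paired analysis was possible because each group holds 1 array and the labels give no replicate numbers to pair; the fit matched treatments within each time instead. Over 90 differences of the 10 probe sets, cyclic loess shifted them by -0.26 to 0.12 and turned 1 sign (the second probe set of Aen in APAP against control at 6 h, -0.06), and median centring by -0.14 to 0.06 and turned none. At 1.5-fold the members apart numbered 3, 4 and 6 for APAP against control at 2, 6 and 24 h, 5, 1 and 5 for AMAP against control, and 3, 4 and 5 for APAP against AMAP. Median centring left 1 member 2-fold apart in APAP against control at 6 h, in place of 2. In the same comparison at 24 h both scalings left 5, in place of 6, and ended the call of Xpc, at 0.90 and 0.84. The median of the 6 genes at 6 h was -0.56 with the mean of all probe sets and -0.81 with the second probe set for APAP against control, and -0.36 and -0.44 for APAP against AMAP; the probe sets of Ddb2, Polk and Aen differ there. No setting of the fit gave a probe set with an adjusted p under 0.05 by limma. Leaving out 1 time in turn, the averaged difference of APAP from control ranged for Xpc from -0.32 to 0.48, for Ercc5 from -0.85 to 0.48, for Rrm2b from -0.47 to 0.14 and for the second probe set of Polk from -0.26 to 0.74. That of AMAP from control ranged for the second probe set of Polk from -0.012 to 0.90, and that of APAP from AMAP for Rrm2b from -0.84 to 0.025. An alternative chosen after seeing the data left out the 3 arrays that stand apart, with 1 residual degree of freedom. It kept only the 2 h array of APAP, so its APAP differences rest on that array and hold no later time of APAP. APAP against control then turned to -0.26 and -0.17 for the probe sets of Polk and to -0.69 for Xpc. AMAP against control turned to -0.012 for the second probe set of Polk, and APAP against AMAP to -0.49 for Polk and -0.35 for Xpc. Both probe sets of Ddb2 stayed lower in APAP, and all 3 of Aen higher, than in control in each setting run. In the setting without the 3 arrays this rests on the 2 h array of APAP alone.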
